A study of Mus musculus with 20 samples.

Results

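Transforming growth factor beta (TGF-beta) ligands, receptors, the latency protein Ltbp1, the feedback inhibitors Smad7 and Skil and the target gene Tgfbi were followed in cultures of mouse colonic organoids (colonoids), which are epithelial structures grown from colonic crypts in a gel matrix. The set held 9 genes of the 35240 gene symbols in the expression table, chosen by name: Tgfb1, Tgfb2, Tgfb3, Ltbp1, Tgfbr1, Tgfbr2, Smad7, Skil and Tgfbi. All 9 were found, as 42 transcripts, and all 9 had a mean value of at least 1, as did 13539 symbols in all. Wild-type (WT) cultures came from C57BL/6 mice and Tnfr2-/- cultures from mice that lack Tnfrsf1b, the gene of TNF receptor 2, in the whole body. All cultures had been passaged before the experiment and reseeded in Matrigel under IntestiCult medium. The paper states that for this experiment the colonoids were not broken down to single cells. They were collected on days 1, 2, 3, 5 and 7 after that passage (days post-passage, DPP), with no further treatment. RNA was sequenced from 2 mice per genotype at each day, which gave 20 libraries in 10 groups of 2. The study's methods describe the donors of its colonoid cultures as young adults of both sexes, the labels give neither for single libraries, and nothing says that the 2 mice of a genotype came from separate litters. Early means days 1, 2 and 3, and late means days 5 and 7. Values are TPM, a level relative to transcript length and library total, divided by a size factor and summed per gene, here called normalised expression.

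TGF-beta is secreted as a latent complex, in which the propeptide holds the mature dimer inactive and a latent TGF-beta binding protein such as Ltbp1 tethers the complex to the extracellular matrix. Once released, the dimer binds the type II receptor (Tgfbr2), which recruits and phosphorylates the type I receptor (Tgfbr1), and the type I receptor phosphorylates Smad2 and Smad3, which enter the nucleus with Smad4. In colonic epithelium the pathway is known as a brake on proliferation, and in fibroblasts as an inducer of matrix genes.

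One coding exon of Tgfbr2 is shown as sequence because the 2 transcripts of this gene in the table differ by it, and 3 promoters are shown for reasons given with them. That exon is exon 2 of transcript Tgfbr2-202, at chr9:116158271-116158345 on the minus strand of GRCm38. It has 75 bases, 25 codons with a remainder of 0, so that its presence keeps the reading frame. Transcript Tgfbr2-201 skips it. The sequence was read from the GENCODE M21 transcripts.
Tgfbr2 exon 2: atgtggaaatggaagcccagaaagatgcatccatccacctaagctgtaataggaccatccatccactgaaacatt
Promoters came from RefSeq (GRCm38.p6), in which 6 of the 9 genes had an entry, with 8 windows. The 250 bases before the start are printed for Tgfb1 and Tgfbr1, the 2 genes called between genotypes at the late days, and for Tgfbr2, the partner receptor. Capitals mark matches to the GC box.
Tgfb1 (chr7:25686752-25687001, plus strand): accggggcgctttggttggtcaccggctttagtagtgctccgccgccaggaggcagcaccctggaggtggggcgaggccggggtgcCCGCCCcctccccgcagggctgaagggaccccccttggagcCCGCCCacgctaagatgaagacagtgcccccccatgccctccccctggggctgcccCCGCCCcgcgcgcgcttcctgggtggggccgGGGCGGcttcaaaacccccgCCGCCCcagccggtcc
Tgfbr1 (chr4:47352972-47353221, plus strand): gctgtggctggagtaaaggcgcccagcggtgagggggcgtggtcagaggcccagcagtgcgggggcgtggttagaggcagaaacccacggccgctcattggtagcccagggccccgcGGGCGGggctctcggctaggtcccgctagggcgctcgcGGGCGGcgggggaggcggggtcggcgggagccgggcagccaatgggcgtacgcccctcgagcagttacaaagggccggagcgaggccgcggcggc
Tgfbr2 (chr9:116175364-116175613, minus strand): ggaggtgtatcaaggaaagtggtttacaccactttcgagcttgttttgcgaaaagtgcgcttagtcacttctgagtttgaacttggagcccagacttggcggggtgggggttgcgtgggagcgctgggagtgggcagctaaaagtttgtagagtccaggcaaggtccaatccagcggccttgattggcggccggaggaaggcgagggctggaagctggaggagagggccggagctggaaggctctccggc

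The 4 motifs searched on both strands were the palindromic SMAD box GTCTAGAC, the CAGA box CAGACA, the AP-1 element TGANTCA and the GC box GGGCGG, the last being the core recognised by Sp1. The Tgfb1 window held 5 matches to the GC box and the printed Tgfbr1 window held 2, and neither held any of the other motifs. A second Tgfbr1 window, at chr4:47385966-47386215, held 1 CAGA box and no GC box, with 52.8% G and C. The Tgfbr2 window held none of the 4. Of 32851 promoter windows of the same length, 32.7% held a GC box, 17.1% a CAGA box, 6.75% the AP-1 element and 0.167% the SMAD box. The share of G and C was 75.2% for Tgfb1, 74.8% for the printed Tgfbr1 window and 58.4% for Tgfbr2, against a median of 52.4% over all windows.

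Library sums lay between 900655 and 1111080, with 13007 to 13469 genes at 1 or above. Tnfrsf1b itself lay between 11.1 and 21.9 in the 10 WT libraries and between 2.71 and 11.5 in the 10 Tnfr2-/- libraries. The genotype difference was -1.35 ± 0.17 (SE, log2) over all days (fold 0.393, adjusted p = 9.72e-05). In the knockout its level rose from early to late (1.02 ± 0.18, fold 2.02, adjusted p = 0.00191), and the late genotype difference was -0.79 ± 0.20 (fold 0.580, adjusted p = 0.0323). The 8 markers of epithelium were above 0 in every library, from Krt19 at 4833 to 9354 down to Cdx2 at 1.85 to 9.10. Markers of fibroblasts were also present in every library, with Pdgfra between 20.6 and 99.7 and Col3a1 between 410.0 and 2182, so the cultures were not epithelium alone. Of the 3 endothelial markers, Cdh5 reached at most 0.293 and Kdr 0.358, while Pecam1 was above 0 in every library (0.288 to 3.90). Among leukocyte markers Ptprc reached at most 0.753 and Adgre1 was at 0 in 19 of 20 libraries. Cd68 lay between 7.12 and 42.5, and Lyz2 reached 5.38. Fewer cells of a type and less RNA per cell cannot be told apart in such bulk libraries. The summed level of 12 fibroblast and myofibroblast markers stood lowest in WT mouse 1 at 5 DPP (1261) and 7 DPP (1860), and highest at 7 DPP in Tnfr2-/- mouse 1 (8086) and mouse 2 (8750).

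Averaged over the 20 libraries, Tgfbr2 was the highest of the 9 genes at 96.9 ± 17.7 (SD, n = 20), and it exceeded Tgfb1 in all 20 libraries. It was followed by Tgfb1 at 41.5 ± 12.0, Skil at 34.3 ± 15.6 and Tgfbi at 33.4 ± 32.0. Tgfb1 was above Skil in 12 of 20 libraries and Skil above Tgfbi in 11, so these neighbours were not separated beyond their spread. Tgfbr1 (23.0 ± 7.97) and Smad7 (19.0 ± 7.60) came next. Tgfbi was above Tgfbr1 in only 9 of 20 libraries, against the order of their means, and Tgfbr1 was above Smad7 in 16. Ltbp1 stood at 10.7 ± 4.68, Tgfb3 at 4.89 ± 3.23 and Tgfb2 at 1.42 ± 1.66. Among all tested genes, Tgfbr2 stood at the 88.1th percentile and Tgfb2 at the 4.35th. Reads behind these values can be judged from the deposited mean on the natural log scale, which the authors made per transcript over all libraries. Its exponent was 145 normalised estimated counts for the main Tgfb1 transcript, 205 for that of Tgfbr1 and 25.5 for Tgfb3. No Tgfb2 transcript had such a value.

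**Figure D1:**
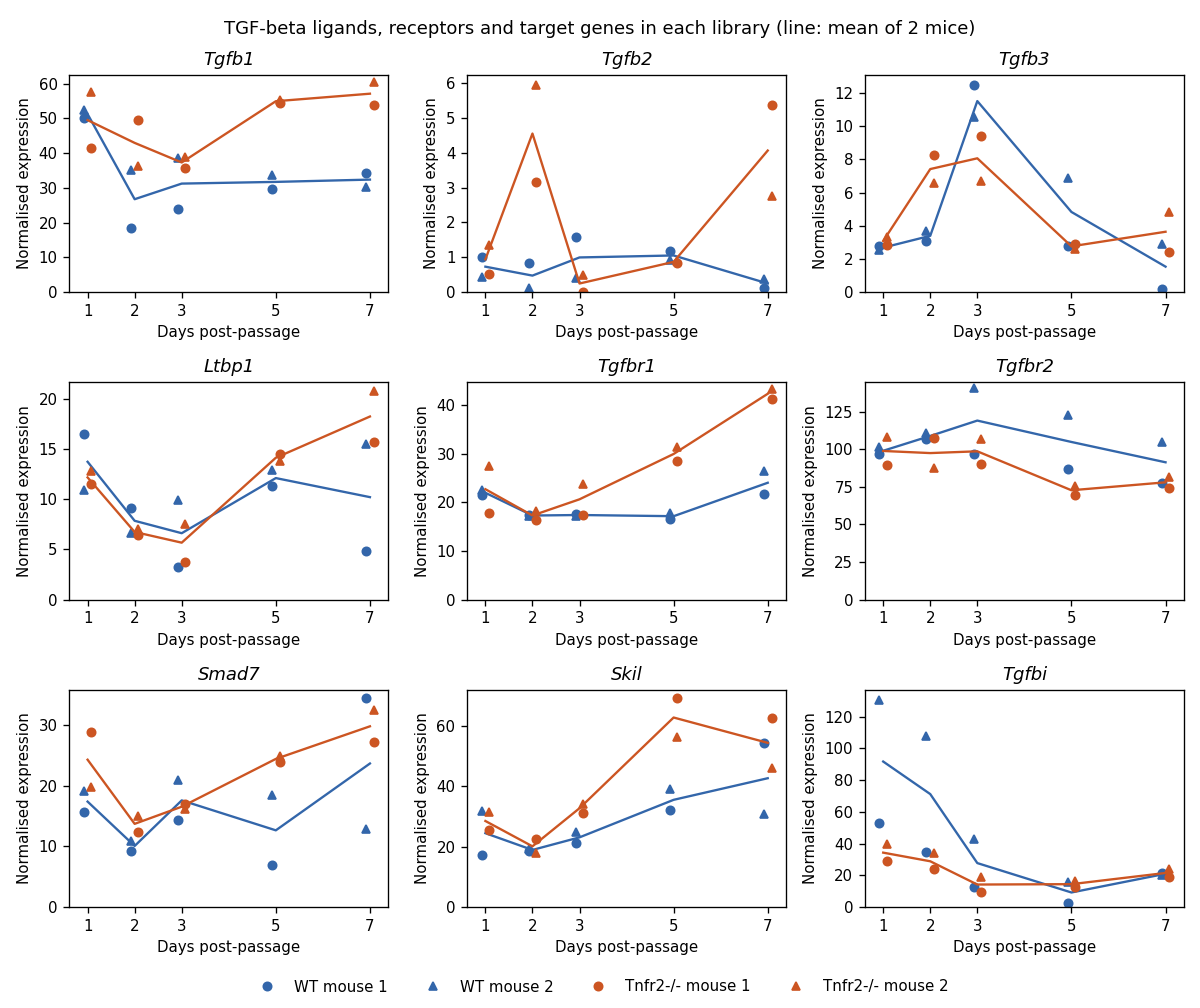
Normalised expression of the 9 genes (y axis, one scale per panel, from 0) against days post-passage (x axis). Points are single libraries, with circles for mouse 1 and triangles for mouse 2, and lines join the mean of the 2 mice in WT (blue) and Tnfr2-/- (orange). At days 5 and 7 the 4 knockout libraries of Tgfb1 (53.8 to 60.4) and of Tgfbr1 (28.5 to 43.3) lay above all 4 WT libraries.

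Tgfb1, the ligand made by most tissues, was the leading ligand in these cultures and the 1 ligand called between genotypes. It made up between 63.0% and 99.1% of the summed level of the 3 ligands in every library. WT mouse 1 had a normalised expression of 50.1, 18.4, 23.9, 29.8 and 34.4 on days 1, 2, 3, 5 and 7, and WT mouse 2 had 52.4, 35.1, 38.5, 33.6 and 30.4. Tnfr2-/- mouse 1 had 41.4, 49.5, 35.8, 54.5 and 53.8, and Tnfr2-/- mouse 2 had 57.6, 36.4, 38.8, 55.4 and 60.4. The genotypes overlapped on days 1 and 3, and on days 2, 5 and 7 both knockout libraries were above both WT libraries. At the late days WT stayed between 29.8 and 34.4 while the knockout stood above 53. The late difference was 0.79 ± 0.20 (SE, log2; fold 1.73, adjusted p = 0.0314), and the early difference was 0.31 ± 0.16 (adjusted p = 0.449). Over all days Tgfb1 was higher in the knockout by 0.50 ± 0.14 (fold 1.42, adjusted p = 0.0332), a call that ended when libraries of 1 mouse were treated as a correlated block (adjusted p = 0.0749). Late against early, the fitted change was 0.39 ± 0.18 in the knockout (adjusted p = 0.157) and -0.09 ± 0.18 in WT (adjusted p = 0.767), and neither was called. The late call was lost without any 1 of the 8 late libraries other than WT mouse 2 at 5 DPP, with adjusted p between 0.0563 and 0.119 at a difference of 0.75 to 0.83, and without either knockout mouse (adjusted p 0.296 and 0.361). The all-days call was lost in 13 of 24 leave-outs, among them WT mouse 1, without which the difference was 0.34 (adjusted p = 0.237).

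The gene lies at chr7:25687002-25705077 on the plus strand (GRCm38). Its main transcript, Tgfb1-201, has 7 exons and a coding length of 1170 bases and carried 90.0% of the gene's level. On this transcript alone, in a fit over 38609 transcripts, the late difference was 0.96 ± 0.18 (adjusted p = 0.0314) and that over all days was 0.64 ± 0.13 (adjusted p = 0.0229). The other 4 transcripts, none of which encodes the full protein in the annotation, made up the rest.

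Tgfb3 was low and highest at 3 DPP in both genotypes. The rise from day 2 to day 3 was clear in WT (means 3.39 and 11.5) and slight in the knockout (7.42 and 8.07). WT mouse 1 had 2.80, 3.10, 12.5, 2.81 and 0.187 on the 5 days, and WT mouse 2 had 2.56, 3.69, 10.5, 6.86 and 2.88. In the knockout, mouse 1 had 2.86, 8.27, 9.43, 2.90 and 2.43, and mouse 2 had 3.30, 6.57, 6.71, 2.62 and 4.85. The level on day 3 was the highest of the 5 days in each of the 4 mice, and on days 1 and 2 both knockout libraries were above both WT libraries, while on day 3 both were below. Averaged over phases these moves were not called: late against early gave -0.77 ± 0.31 in WT (adjusted p = 0.0963) and -0.72 ± 0.31 in the knockout (adjusted p = 0.124). The WT value passed the threshold without WT mouse 2 at 5 DPP (-1.04, adjusted p = 0.0452) or at 7 DPP (-1.20, adjusted p = 0.00745). Without WT mouse 2 altogether it was -1.48 (adjusted p = 0.0121), and without WT mouse 1 it was -0.07 (adjusted p = 0.923), so the WT value rests on mouse 1. The genotype difference was 0.22 ± 0.25 over all days (adjusted p = 0.643).

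Tgfb2 was close to the limit of detection. It lay between 0.121 and 1.58 in WT and between 0 and 5.94 in the knockout, where the highest values were 5.94 (mouse 2, 2 DPP), 5.37 (mouse 1, 7 DPP), 3.16 (mouse 1, 2 DPP) and 2.76 (mouse 2, 7 DPP). On those 2 days both knockout libraries were above both WT libraries, while on day 5 both were below. The late difference was 0.92 ± 0.34 (adjusted p = 0.121). Its highest transcript, Tgfb2-204, a non-coding processed transcript with 43.3% of the level, was at 0 in 16 of 20 libraries, and the main coding transcript had 31.6%.

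Ltbp1, which stores latent TGF-beta in the matrix, was higher at the late than at the early days in the knockout. Its values in Tnfr2-/- mouse 1 were 11.5, 6.44, 3.79, 14.5 and 15.7, and in mouse 2 they were 12.8, 7.04, 7.55, 13.8 and 20.8. WT mouse 1 had 16.5, 9.08, 3.28, 11.3 and 4.88, and WT mouse 2 had 10.9, 6.62, 9.94, 12.9 and 15.5. All 4 mice had their lowest value on day 2 or 3. All 4 late knockout libraries exceeded all 6 early ones, whereas WT mouse 1 was low again at day 7. Late against early the change was 0.97 ± 0.31 in the knockout (fold 1.96, adjusted p = 0.0394) and 0.25 ± 0.31 in WT (adjusted p = 0.607). The difference between these changes was 0.72 ± 0.44 (adjusted p = 0.550), so they were not shown to differ. The knockout call was lost without any 1 of 9 of the 10 knockout libraries, all except mouse 2 at 3 DPP (adjusted p 0.0652 to 0.134 at 0.83 to 1.07). It was also lost without either knockout mouse (0.87 and 1.07, adjusted p = 0.459 and 0.328), without the filter on low values (adjusted p = 0.0779), with equal library sums (0.89, adjusted p = 0.0641) and on the leading transcript alone (0.87, adjusted p = 0.540). The summed level was spread over 3 transcripts, Ltbp1-202 (42.1%), Ltbp1-207 (29.3%) and Ltbp1-203 (16.6%). Of these, Ltbp1-207 is a non-coding processed transcript that was at 0 in 5 of 20 libraries. In the knockout course it changed by 1.57 ± 0.66 (adjusted p = 0.275), and Ltbp1-203 by -1.04 ± 0.54 (adjusted p = 0.403).

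Tgfbr1, the type I receptor kinase, had the lowest adjusted p of the 9 genes between genotypes at the late days and rose over the culture in the knockout. WT mouse 1 had 21.4, 17.5, 17.5, 16.5 and 21.6 on days 1, 2, 3, 5 and 7, and WT mouse 2 had 22.5, 17.1, 17.2, 17.8 and 26.4. Tnfr2-/- mouse 1 had 17.8, 16.4, 17.4, 28.5 and 41.3, and mouse 2 had 27.5, 18.1, 23.8, 31.3 and 43.3. Through day 3 the genotypes overlapped. At day 5 and again at day 7 both knockout libraries were above both WT libraries, and the lowest late knockout value (28.5) was above the highest late WT value (26.4). The late difference was 0.78 ± 0.15 (fold 1.72, adjusted p = 0.00748), and the early difference was 0.08 ± 0.12 (adjusted p = 0.847). Late against early, Tgfbr1 rose by 0.81 ± 0.13 in the knockout (fold 1.76, adjusted p = 0.00110), while the WT change was 0.11 ± 0.13 (adjusted p = 0.617). The test of the difference between phases gave 0.71 ± 0.19 (unadjusted p = 0.00217 in limma, adjusted p = 0.173) and was not called. No single library removed the late call, and it was lost without either knockout mouse or without WT mouse 1 (0.69 to 0.83, adjusted p 0.103 to 0.167). The knockout rise was not called without either knockout mouse (0.67 and 0.96, adjusted p = 0.136 and 0.0635).

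The gene lies at chr4:47353222-47414931 on the plus strand. Tgfbr1-201, with 9 exons and 1509 coding bases, carried 82.5% of its level, and this transcript alone was called at the late days (0.85 ± 0.16, adjusted p = 0.0401) and in the knockout course (0.81 ± 0.15, adjusted p = 0.0131). The next transcript, Tgfbr1-203, with 9.91% of the level, had a late difference of -0.76 ± 0.56 (adjusted p = 0.678).

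Tgfbr2, the ligand-binding type II receptor, had the opposite sign. WT mouse 1 had 96.7, 107, 97.1, 86.6 and 77.6, and WT mouse 2 had 101.2, 111, 141, 123 and 105. Tnfr2-/- mouse 1 had 89.5, 107, 90.2, 69.9 and 74.5, and mouse 2 had 108, 87.5, 107, 75.5 and 81.5. Both knockout mice were lower on days 5 and 7 than on any earlier day, and the late knockout range (69.9 to 81.5) overlapped only the day 7 value of WT mouse 1 (77.6). The late genotype difference was -0.36 ± 0.15 (adjusted p = 0.183), and late against early gave -0.38 ± 0.14 in the knockout (adjusted p = 0.0727) and -0.16 ± 0.14 in WT (adjusted p = 0.447). In the blocked fit the knockout change passed the threshold at the same size (adjusted p = 0.0455). Tgfbr2-202, with the 75-base exon printed above, made up between 26.4% and 40.5% of the gene's level in every library. Its median share was 35.0% early and 30.9% late in WT, and 35.0% early and 32.5% late in the knockout. The late genotype difference was -0.23 ± 0.18 for Tgfbr2-202 (adjusted p = 0.694) and -0.41 ± 0.18 for Tgfbr2-201 (adjusted p = 0.409). The transcripts also differ in their ends (3476 bases for Tgfbr2-201 and 8092 for Tgfbr2-202), so their shares do not rest on reads over the exon alone.

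Within a library the level of Tgfbr2 divided by that of Tgfbr1 is free of the scaling between libraries. This ratio lay between 3.93 and 6.54 in the early knockout libraries and between 4.50 and 8.19 in the early WT libraries. At the late days it lay between 3.58 and 6.91 in WT and between 1.81 and 2.45 in the knockout. The late knockout values were below all other libraries, with Tgfbr2 still the higher of the pair in each of the 20 libraries. Since both levels are given above, the ratio is a description and was not tested.

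**Figure D2:**
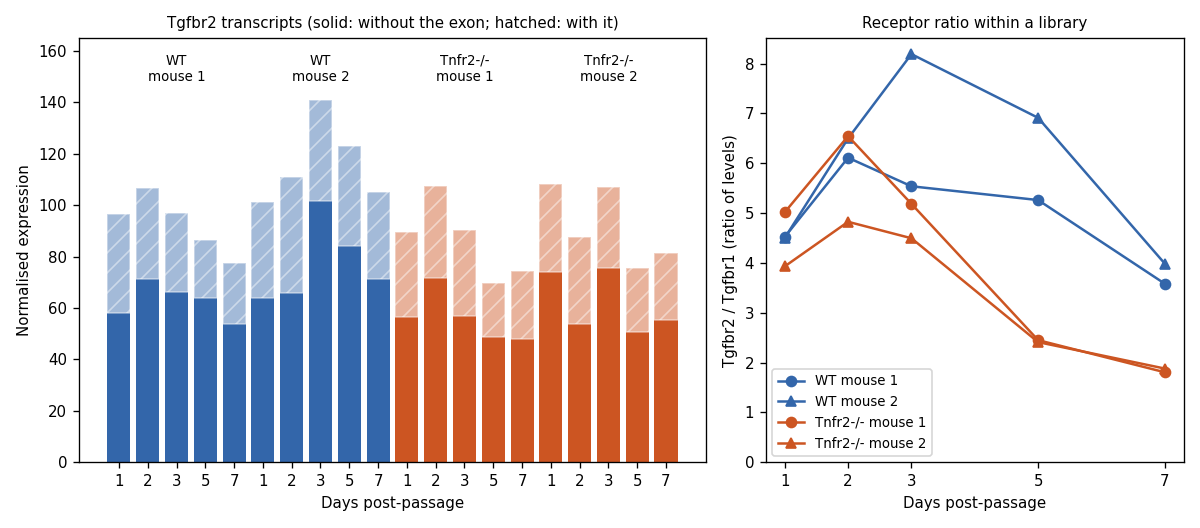
Left, normalised expression of the 2 Tgfbr2 transcripts in each library (bars from 0, grouped by mouse and ordered by days post-passage), solid without and hatched with the 75-base exon, WT in blue and Tnfr2-/- in orange. Right, the ratio of Tgfbr2 to Tgfbr1 within each library against days post-passage, which ended between 1.81 and 2.45 at days 5 and 7 in the knockout and between 3.58 and 6.91 in WT.

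Smad7, which competes with the signalling Smads at the type I receptor and marks it for degradation, was not called in any comparison of the 20 libraries. On the 5 days WT mouse 1 had 15.6, 9.28, 14.3, 6.89 and 34.5, and WT mouse 2 had 19.2, 10.9, 20.9, 18.4 and 12.9, so that the 2 WT mice differed widely on days 5 and 7. Tnfr2-/- mouse 1 had 28.8, 12.4, 16.9, 23.9 and 27.1, and mouse 2 had 19.8, 15.0, 16.2, 25.0 and 32.5. The late difference was 0.75 ± 0.30 (adjusted p = 0.153) and the change in the knockout was 0.59 ± 0.27 (adjusted p = 0.152). The late difference passed the threshold without WT mouse 2 at 5 DPP (1.08) or without WT mouse 1 at 7 DPP (1.09). The full-length transcript Smad7-201 (46.1% of the level) had a late difference of 0.36 ± 0.26 (adjusted p = 0.679). The shorter Smad7-204, with 38.9% and an authors' exponent of only 6.54 normalised estimated counts, had 2.16 ± 0.48 (adjusted p = 0.0737).

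Skil, which encodes SnoN, a repressor of Smad-driven transcription that is itself a rapid TGF-beta target, rose late in both genotypes. Its values were 17.1, 18.7, 21.2, 32.0 and 54.4 in WT mouse 1, and WT mouse 2 had 31.8, 19.2, 25.0, 39.0 and 30.9. Tnfr2-/- mouse 1 had 25.6, 22.4, 31.3, 69.4 and 62.8, and mouse 2 had 31.4, 17.8, 34.2, 56.2 and 46.1. All 4 late knockout libraries (46.1 to 69.4) exceeded all 6 early ones (17.8 to 34.2), whereas in WT 1 early library (31.8) lay within the late range. Late against early the rise was 1.10 ± 0.19 in the knockout (fold 2.15, adjusted p = 0.00165) and 0.79 ± 0.19 in WT (fold 1.72, adjusted p = 0.0118). The difference between the rises was 0.31 ± 0.27 (adjusted p = 0.681). The WT call was lost without WT mouse 1 at 7 DPP (0.59, adjusted p = 0.0693), without WT mouse 1 altogether (0.47, adjusted p = 0.185) and, at an unchanged 0.79, without either knockout mouse (adjusted p 0.0699 and 0.0704). The knockout call was lost without either knockout mouse (0.90 and 1.30, adjusted p = 0.231 and 0.0984). Between genotypes the difference was 0.40 ± 0.13 over all days (adjusted p = 0.0693) and 0.59 ± 0.21 at the late days (adjusted p = 0.113). Over all days it passed the threshold without WT mouse 2 at 1 DPP (0.47, adjusted p = 0.0242) or without WT mouse 1 at 7 DPP (0.46, adjusted p = 0.0353) and when WT mouse 2 was left out (0.46, adjusted p = 0.0497). Without WT mouse 1 at 7 DPP the late difference was 0.79 (adjusted p = 0.0484). Reads of Skil were divided among 5 transcripts with 10.8% to 43.9% of the level each, and its highest transcript alone was not called in either course.

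Tgfbi, a secreted matrix protein named for its induction by TGF-beta, fell from the early to the late days in WT. WT mouse 2 had 131, 108, 43.1, 15.7 and 20.4, and WT mouse 1 had 52.8, 34.4, 12.3, 2.54 and 21.5. Tnfr2-/- mouse 1 had 29.0, 23.8, 9.58, 12.4 and 19.2, and mouse 2 had 39.5, 33.8, 18.7, 16.3 and 23.7. On days 1 and 2 both WT libraries were above both knockout libraries, and from day 3 the genotypes overlapped. The WT change was -1.95 ± 0.47 (fold 0.259, adjusted p = 0.0111) and the knockout change was -0.41 ± 0.47 (adjusted p = 0.591), with a difference of 1.54 ± 0.66 between them (unadjusted p = 0.0362 in limma, adjusted p = 0.388). The early genotype difference was -1.03 ± 0.42 (adjusted p = 0.305). Without WT mouse 1 at 5 DPP, the lowest library, the WT change was -1.39 (adjusted p = 0.0599), and the call was also lost without either knockout mouse at an unchanged -1.95 (adjusted p 0.0780 and 0.0781). Tgfbi-201 carried 93.6% of the level.

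Between 0 and 3 of the 9 genes were called in a comparison, each count given here beside the background. Over all days 1 of 9 was called between genotypes, with 7.6% of all tested genes called. At the early days none of 9 was called, where 1.2% of genes were, and 1 of 9 had an unadjusted p under 0.05 in limma, as did 12.9% of all tested genes. At the late days 2 of 9 were called, both higher, and the background was 6.45%. An unadjusted p under 0.05 was reached by 6 of 9, and by 22.9% of all tested genes. The median of the 9 late differences was 0.59, beside -0.05 over all tested genes, and 8 of 9 were positive. The change of the genotype effect from early to late was called in none of 9 (2 with an unadjusted p under 0.05 in limma, beside 11.7% of all tested genes) and in 0.148% of genes. Late against early, 2 of 9 were called in WT (background 20.1%) and 3 of 9 in the knockout (background 20.3%), with Skil in both. Late libraries of the genotypes did not overlap for 2 of 9, Tgfb1 and Tgfbr1, against 11.4% of all tested genes. In a fit on mouse means, 2 against 2, none of 9 was called in any genotype comparison. For the late days its adjusted p was 0.204 for Tgfb1 and 0.233 for Tgfbr1 at unchanged differences. That fit called 7 of all 13539 tested genes over all days, 3 early and 0 late. A count of 0 among 9 genes therefore says little here.

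**Figure D3:**
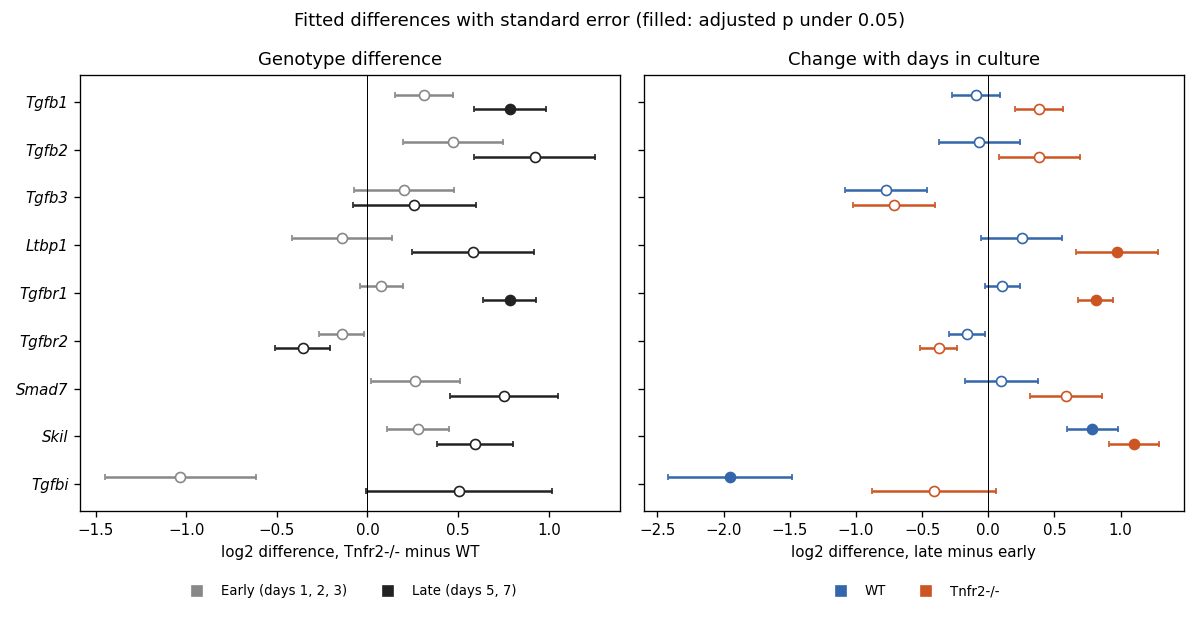
Fitted log2 differences of the 9 genes (x axis) with their standard errors, filled where the adjusted p was under 0.05. The left panel shows Tnfr2-/- minus WT at the early (grey) and late (black) days, where Tgfb1 (0.79) and Tgfbr1 (0.78) were called at the late days, and the right panel shows late minus early in WT (blue) and in Tnfr2-/- (orange), from -1.95 for Tgfbi to 1.10 for Skil.

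At the late days 2 of 11 tested fibroblast and myofibroblast markers were called higher in the knockout, and so was 1 of 2 tested leukocyte markers, Cd68. Beside these small counts, 6.45% of all tested genes were called late. The sum of the 12 fibroblast and myofibroblast markers ranged from 1261 to 4121 (median 2636) in the 4 late WT libraries and from 3749 to 8750 (median 6632) in the 4 late knockout libraries, against 2102 to 4312 (median 4025) and 3165 to 4714 (median 4126) early. Dcn was already called early. Of the 11 markers tested, 2 were called higher late, Dcn (2.74, adjusted p = 2.16e-05) and Vim (1.69, adjusted p = 0.0122), and none lower. Acta2 (5.24 to 92.8) and Tagln (9.80 to 156), markers of myofibroblasts and smooth muscle, were above 0 in all 20 libraries, while the muscle marker Des was at 0 in 9 of 20 and at most 0.947. The sum of 6 leukocyte markers ranged from 8.60 to 16.8 in late WT libraries and from 19.5 to 45.1 in late knockout libraries, against 9.41 to 15.5 (median 11.2) and 15.5 to 26.1 (median 23.6) early. Most of it was Cd68, a macrophage marker that was called higher late (1.35, adjusted p = 0.00640), early and over all days, while Lyz2, the other leukocyte marker tested, was not called late (adjusted p = 0.766). The early means of Lyz2 were 1.93 in WT and 1.71 in the knockout, and Ptprc and Adgre1 were at or near 0. The part of the leukocyte markers in the results was not tested. The summed level of the 8 epithelial markers overlapped between genotypes late (14442 to 17910 in WT, 13057 to 18522 in the knockout). Of these 8, 2 were called higher in the knockout over all days, Cdh1 and Epcam, beside 7.6% of all tested genes. At the late days 0 of 8 were called, with Epcam just short of the threshold (0.50, adjusted p = 0.0503). Across the 20 libraries, which share mice and days, the log2 level correlated with that of the marker sum at a Pearson r of 0.69 for Tgfbr1, 0.60 for Tgfb1, 0.54 for Ltbp1, 0.45 for Tgfbi, 0.19 for Skil and -0.08 for Tgfbr2. With the marker sum as a covariate, the late difference was 0.52 for Tgfb1 (adjusted p = 0.475) and 0.53 for Tgfbr1 (adjusted p = 0.269), and neither was called, nor was Tgfb1 over all days (0.33, adjusted p = 0.268). Under the same covariate Tgfbr2 was called lower in the knockout late (-0.84, adjusted p = 0.0219), and Tgfbi was called lower early (-1.22, adjusted p = 0.0470) and over all days (-1.15, adjusted p = 0.0266). In this fit the rise of Tgfbr1 in the knockout (0.69, adjusted p = 0.00465) and of Skil in the knockout (1.16, adjusted p = 0.00344) and WT (0.73, adjusted p = 0.0447) remained called, as did the fall of Tgfbi in WT (-1.24, adjusted p = 0.0420). The call of Ltbp1 in the knockout course was lost (0.54, adjusted p = 0.203). In that course the falls of Tgfbr2 (-0.60, adjusted p = 0.00265), Tgfb3 (-1.09, adjusted p = 0.0264) and Tgfbi (-1.17, adjusted p = 0.0437) gained a call. Since genotype and marker level move together at the late days, their parts in the difference cannot be told apart.

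**Figure D4:**
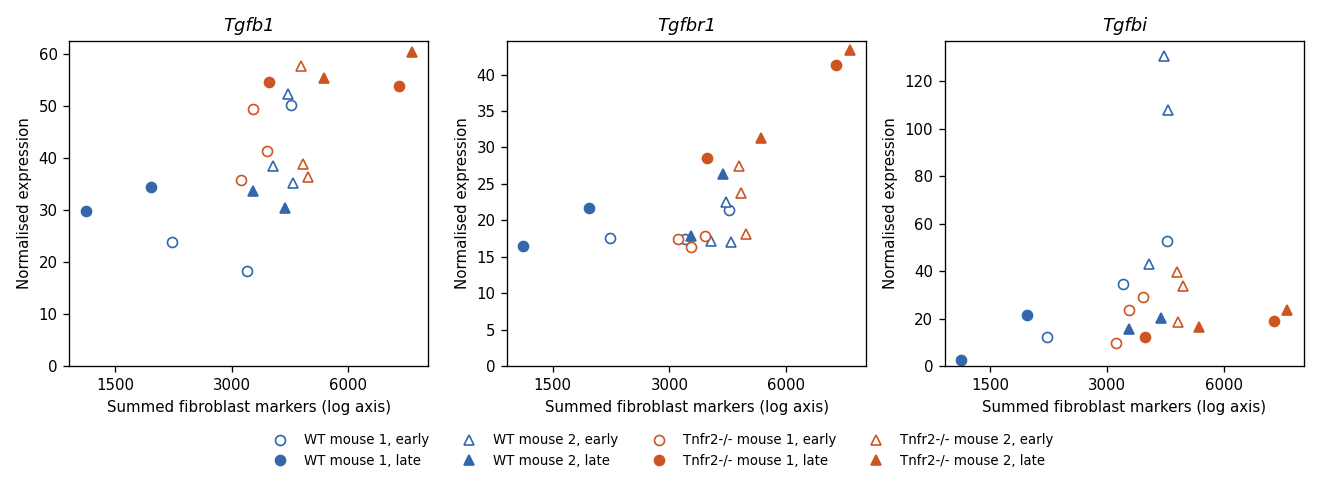
Normalised expression of Tgfb1, Tgfbr1 and Tgfbi (y axes, from 0) against the summed level of 12 fibroblast and myofibroblast markers (x axis, log scale) in each library, with WT in blue, Tnfr2-/- in orange, circles for mouse 1, triangles for mouse 2, and filled symbols for the late days. The late knockout libraries lie at 3749 to 8750 on the x axis and the late WT libraries at 1261 to 4121.

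Other genes of the pathway were grouped by role in lists with 50 genes in the table, of which 48 were tested. At the late days 13 of 48 (27.1%) were called between genotypes, 12 higher and 1 lower, beside a background of 6.45%. Over all days 17 of 48 (35.4%) were called, all higher, beside 7.6% of all tested genes. At the early days 2 of 48 were called, both higher, beside 1.2%. When mice entered as a correlated block, 12 were called over all days and 1 early, without Cd109, Cdkn1a, Fst, Itgav and Ltbp3 over all days and Tgfbr3 early, and 13 late. Of all 13539 tested genes that block fit called 545 over all days, 110 early and 743 late. The late count was 3 without Tnfr2-/- mouse 2 at 5 DPP or at 7 DPP, 4 without WT mouse 1 at 5 DPP and 0 without either knockout mouse. The early count was 0 when either knockout mouse was left out, 3 when WT mouse 1 was and 16 when WT mouse 2 was. Without WT mouse 2 the counts were also higher over all days (27) and late (22), and without Tnfr2-/- mouse 1, Tnfr2-/- mouse 2 or WT mouse 1 the all-days count was 5, 2 or 7. None was called by limma for the change between phases, where the median was 0.33 and 5 of 48 had an unadjusted p under 0.05, as did 11.7% of all tested genes. With mice as a fixed term 1 of 48 was called for that change, Fst, an inhibitor of activins. That fit called 163 of all 13539 tested genes for the change, where limma without the mouse term called 20. On mouse means, 2 against 2, 0 of 48 and 0 of all tested genes were called for it. Counts over all genes also moved widely when a library or mouse was left out, over the ranges given in the closing section. Where a list's called genes are named, their choice for ranks beyond the first 5 by p was made after the values were seen.

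In the latency and activation list, 3 of 10 genes were called higher and 1 lower late. The leading one was Ltbp2, a matrix protein of the same family as Ltbp1. On days 5 and 7 it had 8.10 and 16.5 in WT mouse 1, 6.66 and 12.4 in WT mouse 2, 26.1 and 65.6 in Tnfr2-/- mouse 1 and 33.8 and 76.7 in mouse 2. The late difference was 2.06 ± 0.28 (fold 4.16, adjusted p = 0.00105), and Ltbp2 was also called early (1.33 ± 0.23, adjusted p = 0.0112). Mmp14, a membrane protease, and Itgb6, the beta chain of an epithelial integrin that activates latent TGF-beta, were the other 2 higher, at 1.12 and 0.69. Itgb8, the beta chain of another activating integrin, was the 1 lower (-0.76 ± 0.20, adjusted p = 0.0391). It missed the threshold in 14 of 24 leave-outs and with a pseudocount of 0.25, without a filter on low values or with quantile normalization. Itgb8 rose in both courses, by 2.13 ± 0.18 in WT (fold 4.38, adjusted p = 5.54e-05) and by 1.57 ± 0.18 in the knockout (fold 2.97, adjusted p = 0.000144), from between 1.39 and 2.17 at day 1 to between 9.46 and 27.7 at day 7.

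Of 6 co-receptors and other receptors, Tgfbr3 and Cd109 were called higher late. Tgfbr3, or betaglycan, presents ligand to the type II receptor. It lay between 1.84 and 3.04 in late WT libraries and between 6.53 and 15.6 in late knockout libraries, a difference of 1.56 ± 0.23 (fold 2.94, adjusted p = 0.00172). It was called early as well (0.86 ± 0.19, adjusted p = 0.0397), but that call ended in the blocked fit (adjusted p = 0.0865) and in 17 of 24 leave-outs. In WT it fell from early to late by 0.93 on the log2 scale (adjusted p = 0.00748). The study describes TGF-beta signalling from these same samples, so the direction of these lists is not independent evidence. Among 5 signal transducers, Smad3 was called over all days (0.57 ± 0.11, fold 1.49, adjusted p = 0.00568) and Fkbp1a, a binding partner of the type I receptor, late (0.45). None of the 7 tested inhibitors was called between genotypes by limma over all, early or late days, with 1 of 7 at an unadjusted p under 0.05 in each (beside 22.3%, 12.9% and 22.9% of all tested genes), and Smurf2, a ubiquitin ligase that acts with Smad7, rose in both courses (0.47 in WT, 0.64 in the knockout).

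Among the other target genes, Lox, a collagen crosslinking enzyme, and Junb, a subunit of AP-1, were called higher late. On days 5 and 7 Lox had 22.3 and 29.2 in WT mouse 1, 61.3 and 59.3 in WT mouse 2, 74.3 and 161 in Tnfr2-/- mouse 1 and 88.2 and 147 in mouse 2. The lowest late knockout library was above the highest late WT library, and the difference was 1.48 ± 0.32 (fold 2.79, adjusted p = 0.0169). That of Junb was 0.63 ± 0.15 (fold 1.55, adjusted p = 0.0263). Klf10, Cdkn2b and Bhlhe40 rose in both courses, by 0.65 to 0.84 in WT and 0.79 to 0.85 in the knockout. Of the 7 genes of activins, which signal through the same Smads, and their inhibitors, 3 were called higher late: the activin chain Inhba (1.96 ± 0.44, fold 3.89) and the activin antagonists Fst (2.60 ± 0.41, fold 6.07, adjusted p = 0.00281) and Fstl3 (1.44 ± 0.31, fold 2.70, adjusted p = 0.0169). Fst lay between 1.59 and 8.52 in late WT libraries and between 19.4 and 63.5 in late knockout libraries.

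Without WT mouse 1, in whose libraries Ccn2, Lox and Ltbp3 stood below WT mouse 2 on each of the 5 days, 9 of 48 pathway genes were called late and 7 over all days. With the fibroblast marker sum as a covariate, 0 of 48 were called late by limma and 7 over all days. Of all 13539 tested genes this fit called 199 late and 558 over all days. On mouse means, 2 against 2, 0 of 48 were called in either comparison, with 0 of all tested genes called late and 7 over all days. Under that covariate Ltbp2 (1.35, adjusted p = 0.000531), Tgfbr3 (0.90, adjusted p = 0.00364), Lox (0.67, adjusted p = 0.00205) and Smad3 (0.62, adjusted p = 0.0149) were among those called over all days. The late difference under it was 1.72 for Ltbp2 (adjusted p = 0.0716), 1.22 for Tgfbr3 (adjusted p = 0.102), 0.16 for Lox (adjusted p = 0.728) and 0.19 for Mmp14 (adjusted p = 0.730).

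**Figure D5:**
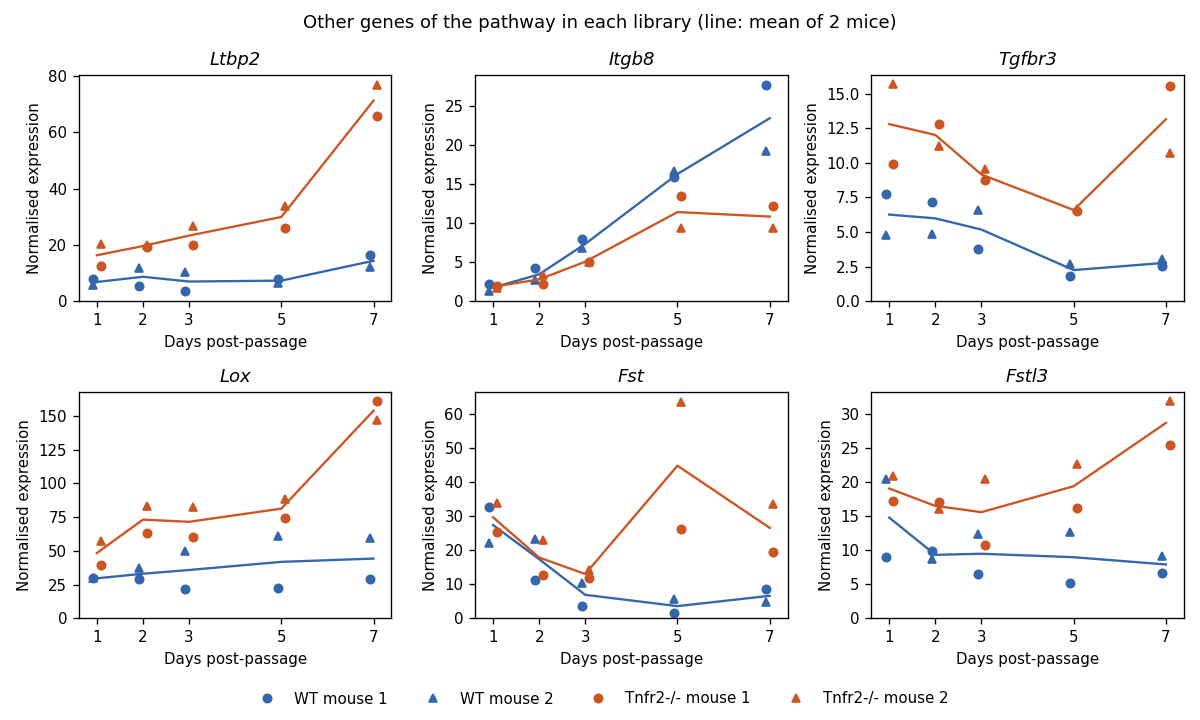
Normalised expression of Ltbp2, Itgb8, Tgfbr3, Lox, Fst and Fstl3 (y axes, from 0) against days post-passage, with single libraries as points (circles for mouse 1, triangles for mouse 2) and the mean of the 2 mice as lines, WT in blue and Tnfr2-/- in orange. At days 5 and 7 the knockout libraries of Ltbp2 (26.1 to 76.7), Tgfbr3 (6.53 to 15.6) and Fst (19.4 to 63.5) lay above all WT libraries of those days, and those of Itgb8 lay below.

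The genes most like each member over the 20 libraries, by Pearson r of log2(value + 1), were Adamts1 (0.89), Pls3 (0.88) and Map1lc3a (0.87) for Tgfb1 and Boc (0.90), P2rx2 (0.90) and Ppm1l (0.89) for Tgfbr1. For Tgfbr2 they were Zfp365 (0.85), Slc9a9 (0.81) and Bmp3 (0.80). Skil had the closest neighbours, Adam10, Mtmr6 and Lpp (0.94 to 0.95), and Tgfbi followed with Bmp4 (0.92), Snai2 (0.89) and Aldh1a2 (0.88). For Smad7 they were Pmaip1, Rnf19b and Zfp260 (0.84 to 0.85), for Ltbp1 Dnajb5, Creb3l2 and Adgrl2 (0.78 to 0.81), and for Tgfb3 Ggta1, Acd and Npnt (0.80 to 0.83). Tgfb2, at its low level, reached 0.70 with Pde6h and 0.66 with Nkx2-3. Among the 9 genes themselves the highest value was 0.70, between Tgfbr1 and Skil, and the lowest was -0.60, between Tgfbr2 and Skil. These values describe libraries that share mice and days and carry no test.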

How the data were processed

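RNA from WT and Tnfr2-/- colonoids was made into stranded mRNA libraries and read as single ends. Per the submitters' processing notes, reads went through CASAVA, kallisto with mm10 transcripts and sleuth. Kallisto divides reads shared by similar transcripts by a model, so transcripts of 1 gene can exchange reads. The deposited values are a signal per transcript, which the authors obtained from TPM by a library-wise size factor. The table also holds a deposited mean of normalised estimated counts on the natural log scale, pooled over all libraries by the authors, and the authors' test statistics, which were not used. No library's read depth is in the table, so no counting interval is given.

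Of 113974 lines, 781 repeats were dropped, leaving 113193 transcripts, and 199 without a gene (at most 0.0989% of a library) were left out. Values were summed per symbol and analysed as log2(value + 1) for the 13539 genes with a mean of at least 1. A log2 difference is on this scale and understates the change of low genes. Fits used limma 3.58.1 (R 4.3.3) with a variance trend and Benjamini-Hochberg adjustment over all genes tested, and called means an adjusted p under 0.05. Genotype over all days came from day as a factor plus genotype, and the other comparisons from 1 mean per group of genotype and day. The script was tested on simulated data.

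Members, pathway lists and markers were chosen with earlier results of these data known. The 9 members are all named, pathway genes are named where called (the 5 lowest p per comparison), and likeness gives the 3 genes with the highest r. Some genes that these rules choose are not reported here. The listed Ctgf is an older name of Ccn2. A transcript is described if it has the highest mean or at least 10% of its gene. Replicate numbers were read as mice, so the same number pairs the 5 days within a genotype, and WT and Tnfr2-/- mice of 1 number are different animals. The 20 correlations between deviations of day pairs of a mouse lay between -0.0511 and 0.307 (median 0.0899), and the block correlation was 0.0588 in the all-days fit and 0.0929 in the group fit. The 15 alternatives and 24 leave-outs (20 libraries, 4 mice) are described in the closing section. The labels name no batch.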

Additional observations from a re-analysis of the deposited data

How the results depend on the processing

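The number of the 9 genes called was recomputed under up to 15 alternatives and 24 leave-outs. For genotype over all days (1 called), it was 0 without a filter on low values, with equal library sums, with the replicate block (mouse as a correlated block), on mouse means and with day as a linear term. At the early days (0 called) it was 1 with the fibroblast covariate. At the late days (2 called) it was 1 without the filter and 1 with the covariate, where Tgfbr2 in place of Tgfb1 and Tgfbr1 was called, and 0 on mouse means. On the leading transcript alone it was 0 in WT (2 called) and 1 in the knockout course (3 called), which was 5 with the covariate. On mouse means only 7 of all 13539 tested genes were called over all days, 3 early and 0 late. The causes of these changes were not tested. The paired fits, with the mouse as a block, moved no other count of the 9 genes by over 1.5 times, and took the early count of pathway genes from 2 to 1 (correlated block) and their count for the change between phases from 0 to 1 (fixed term). For Tgfb1 over all days the block gave adjusted p = 0.0749 at an unchanged 0.50. Leaving out 1 library or mouse gave 0 to 2 called over all days, 0 to 1 early, 0 to 5 late, 0 to 0 for the change between phases, 0 to 3 in WT and 0 to 6 in the knockout. Without WT mouse 2, 5 were called late. Of 1998 single values recomputed for 54 results, 1853 kept direction and side of the threshold, 65 lost the call, 31 gained one, 49 uncalled values changed sign and no called value did.

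Over all genes, calls ranged from 7 to 1150 over all days, from 3 to 358 early and from 0 to 966 late under the alternatives, and from 146 to 1931, 14 to 720 and 19 to 2186 under the leave-outs. Pathway genes called ranged from 0 to 18 over all days, 0 to 3 early and 0 to 13 late under the alternatives, and from 2 to 27, 0 to 16 and 0 to 22 under the leave-outs, counts that were added after the data were seen. The late differences of Smad7 and Tgfb2 had an unadjusted p of 0.0248 and 0.0159 in limma and missed the threshold after adjustment. With 2 mice per genotype, differences of that size were not settled, and the table does not hold the read depth of each library.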
